A study of Mus musculus with 18 samples.

Results

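DNA methylation writers and erasers were followed as a set of 9 named genes in mouse bone marrow cells that carried, or lacked, the fatty acid binding protein gene Fabp4. The set held the methyltransferase genes Dnmt1, Dnmt3a and Dnmt3b, the cofactor gene Uhrf1, the dioxygenase genes Tet1, Tet2 and Tet3, and the isocitrate dehydrogenase genes Idh1 and Idh2. The rule lists the members by name and uses no measured value, but the set was proposed with earlier results of these data known. Dnmt1 has been linked to FABP4 in leukemia. All 9 were found among the 22017 genes of the in vitro table. In the bone marrow table of 13195 genes 8 of them were found, and Dnmt3b was not analysed here.

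Bulk RNA sequencing was performed on cells of 3 genotypes, Fabp4 wild type (WT), heterozygous knockout (HET) and homozygous knockout (KO). Per the labels, 9 samples were sorted from a source termed vitro bone marrow, called in vitro below, and 9 were sorted from bone marrow, each with 3 per genotype. In bone marrow, HET had n = 2 because its replicate 2 was not analysed here. The labels give no age, strain, sorted population, culture condition or construction of the knockout allele, nor whether libraries stem from different mice. The p-values below therefore describe how far these libraries spread, which may be technical. The series title places the work in leukemia stem cells and hematopoietic stem cells.

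DNA methylation in mammals is laid down on cytosines that precede guanines. Dnmt3a and Dnmt3b encode enzymes that place new marks, and Dnmt1 encodes the enzyme that copies marks onto the new strand after replication, brought there by the protein that Uhrf1 encodes. Tet1, Tet2 and Tet3 encode dioxygenases that oxidise methylated cytosine and thereby start its removal, using alpha-ketoglutarate as a co-substrate. Idh1 in the cytosol and Idh2 in mitochondria encode enzymes that make alpha-ketoglutarate, and mutant forms of either human enzyme make a related acid that inhibits TET enzymes. DNMT3A, TET2, IDH1 and IDH2 are recurrently mutated in human acute myeloid leukemia. Transcript levels, which are what was measured here, say nothing of such mutations or of enzyme activity, and DNA methylation itself was not measured.

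Values are FPKM, fragments scaled by transcript length and by the number mapped, so levels are per length and can be set side by side between genes. A limit is that in vitro values still differed between libraries by transcript length, as given below. Estimated depth was 30.63 to 36.9 M fragments per in vitro library. In bone marrow it ran from 3.96 M (HET 1), 11.83 M (HET 3) and 16.23 M (KO 1) up to 36.36 M. Fabp4 itself gave no useful check of the genotype labels. Its in vitro level was 0, 0.0326 and 0.330 FPKM in WT, 0, 0.0676 and 0 in HET, and 0 in all 3 KO libraries, and it was not analysed here in bone marrow. The sum over 10 genes expressed by blood cells in general was 1256 to 1554 FPKM over the in vitro libraries and 1673 to 2925 in bone marrow, with none of the 10 at 0 in any in vitro library and up to 4 at 0 in a bone marrow HET library. The in vitro libraries held 6089 to 9495 FPKM of myeloid progenitor markers and 3130 to 5958 of mast cell, basophil and eosinophil markers. Neutrophil markers summed to 621 to 4547 FPKM there, monocyte and macrophage markers to 510 to 1200 and erythroid markers to 471 to 659. B cell markers summed to 5.14 to 8.94 and T and NK cell markers to 2.95 to 4.80. In bulk RNA, fewer cells of a type and less RNA per cell cannot be told apart.

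The 9 genes lie on 9 different chromosomes, given here on GRCm38.p6, the same assembly as mm10. Dnmt1 lies on chromosome 9 (20907206 to 20959888), Uhrf1 on chromosome 17 (56303337 to 56323486), Dnmt3a on chromosome 12 (3801559 to 3914443) and Dnmt3b on chromosome 2 (153649411 to 153687730). Tet1 lies on chromosome 10 (62804570 to 62887469), Tet2 on chromosome 3 (133463677 to 133545136) and Tet3 on chromosome 6 (83362373 to 83457208). Idh1 lies on chromosome 1 (65158616 to 65186479) and Idh2 on chromosome 7 (80094845 to 80118608). RefSeq gave 15 start sites for these 9 genes, each with a promoter window of 250 bases before and 50 bases after the start. The windows held a median of 23 CpG dinucleotides, the substrate of the encoded enzymes, against a median of 7 in all 32851 mouse promoter windows of the same length. The range among members was wide. Dnmt1 alone spanned 2, 12 and 33 CpG over its 3 start sites, and the Tet2 window held 57.

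An E2F motif, TTTNNCGC on either strand, was found in 5.17% of all promoter windows. E2F factors drive genes at the entry into S phase, and Dnmt1 and Uhrf1, which act together behind the replication fork, were the members with a match. It was present in 3 of the 15 member windows, at start 3 of Dnmt1 and at starts 1 and 2 of Uhrf1. The CpG-dense window of each gene is printed because those windows set the replication-linked pair apart in sequence from the other members. Capitals mark the E2F matches. At start 3 of Dnmt1 (chr9:20952574-20952873, minus strand) there are 3, of which a pair overlap, and at start 2 of Uhrf1 (chr17:56304063-56304362, plus strand) there is 1.
Dnmt1 start 3: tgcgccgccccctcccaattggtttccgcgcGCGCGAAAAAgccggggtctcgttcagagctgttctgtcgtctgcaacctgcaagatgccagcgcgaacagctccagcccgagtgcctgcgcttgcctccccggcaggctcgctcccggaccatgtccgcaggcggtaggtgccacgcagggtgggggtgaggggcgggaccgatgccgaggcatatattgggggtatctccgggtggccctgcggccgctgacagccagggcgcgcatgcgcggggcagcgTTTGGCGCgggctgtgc
Uhrf1 start 2: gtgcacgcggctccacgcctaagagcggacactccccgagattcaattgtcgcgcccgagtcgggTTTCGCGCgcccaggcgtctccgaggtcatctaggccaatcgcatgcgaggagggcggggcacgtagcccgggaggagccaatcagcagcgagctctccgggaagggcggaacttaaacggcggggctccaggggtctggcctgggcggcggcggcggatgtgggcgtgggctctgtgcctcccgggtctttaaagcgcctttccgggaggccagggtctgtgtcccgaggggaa
The GC box GGGCGG on either strand, the core of SP1 binding sites, was found in 13 of 15 member windows and in 35.7% of all windows. Both this motif and the E2F motif contain a CpG, and member windows were richer in CpG. The shares were not matched for CpG content, and the windows at starts 1 and 2 of Dnmt3a overlap. The STAT motif TTCNNNGAA was in 0 of 15 member windows and in 8.3% of all windows. A match is a run of letters and says nothing of binding, and a window without a match says only that the letters are not within it.

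In vitro, the maintenance pair and the isocitrate dehydrogenases were the abundant members and the dioxygenases and de novo enzymes the scarce ones. Over the 9 in vitro libraries the mean level was 61.4 FPKM for Idh1, 35.1 for Idh2, 34.8 for Dnmt1 and 27.3 for Uhrf1. Then came Tet2 with 6.31, Dnmt3b with 4.28, Tet3 with 3.83, Dnmt3a with 2.78 and Tet1 with 0.605 FPKM. Along that order, the ranges of neighbours were separate at 3 places, between Idh1 and Idh2, between Uhrf1 and Tet2, and between Dnmt3a and Tet1. The other neighbours overlapped over the libraries, so their ranges do not order them. This holds for neighbours among Idh2, Dnmt1 and Uhrf1, and among Tet2, Dnmt3b, Tet3 and Dnmt3a. Genes further apart could still differ. Idh2 was above Uhrf1 within every in vitro library, and the lowest Tet2 value, 4.12 FPKM, was above the highest Dnmt3a value, 3.17. Tet1 did not reach 1 FPKM in any in vitro library. The part of transcript length in this order was not tested.

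None of the 8 tested members passed the test in any in vitro genotype comparison. In KO against WT, limma called 0 of 8 members, where it called 325 of 10877 genes (2.99%, of which 1.36% higher and 1.63% lower), and 2 members (Dnmt3b and Idh1) had an unadjusted p under 0.05, as did 19.4% of all genes. In HET against WT, limma called 0 of 8, where it called 400 genes (3.68%, with 2.94% higher and 0.735% lower), and 2 members (Dnmt1 and Idh1) had an unadjusted p under 0.05, as did 23.4% of all genes. In KO against HET, limma called 0 of 8, where it called 216 genes (1.99%, with 0.598% higher and 1.39% lower), and 1 member (Uhrf1) had an unadjusted p under 0.05, as did 13.2% of all genes. The median difference over the tested members on the log2(FPKM + 1) scale was 0.06, 0.19 and -0.08 in these 3 comparisons, against 0.04, 0.04 and -0.00 over all genes tested. The comparisons share libraries, so their results are not independent.

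**Figure D1:**
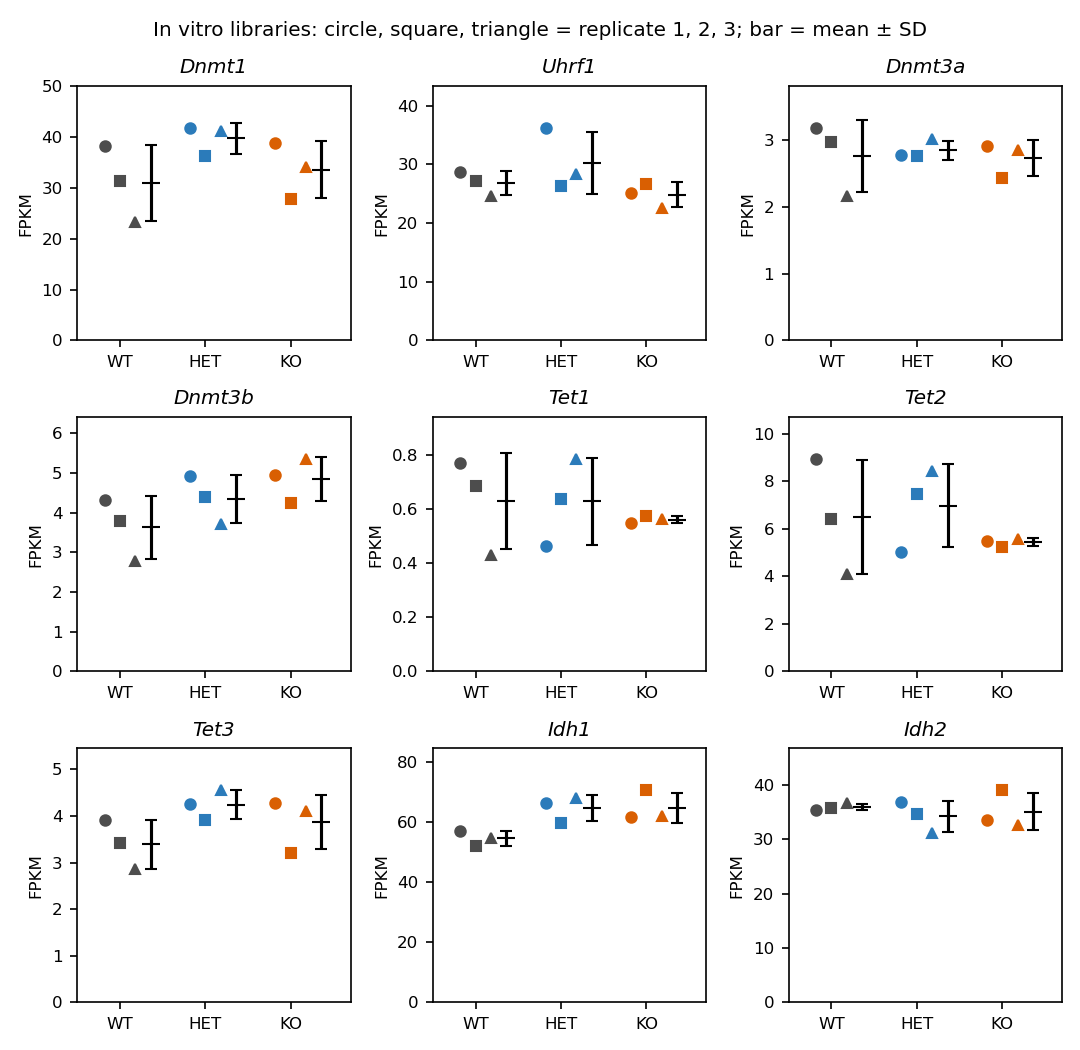
FPKM of each of the 9 genes (y axis, from 0) in each in vitro library by genotype (x axis), with the mean and SD of the 3 libraries beside the points. Idh1 is the panel in which the 3 WT libraries, at 52.0 to 56.9, lie below all 6 others, and WT 3 is the lowest point of 6 panels.

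Dnmt1, the maintenance methyltransferase gene, was the member that the study's gene of interest has been linked to. Its level was 38.2, 31.4 and 23.2 FPKM in the WT libraries, 41.7, 36.3 and 41.2 in HET and 38.9, 27.8 and 34.1 in KO. The WT libraries ran from WT 1, which was above 3 of the other 6 libraries, down to WT 3, which was below all of them. HET 1, HET 3 and KO 1 were above every WT library. The group means were 30.9 ± 7.53, 39.7 ± 2.99 and 33.6 ± 5.55 FPKM (SD, n = 3 each). KO minus WT was 0.13 on the log2(FPKM + 1) scale (SE 0.16, 95% interval -0.22 to 0.48, limma adjusted p = 0.699). That value was -0.05 without WT 3 and 0.29 without WT 1 (limma adjusted p = 0.887 and 0.249). HET minus WT was 0.38 (95% interval 0.03 to 0.73, limma adjusted p = 0.185), with 0.19 without WT 3 and 0.54 without WT 1 (limma adjusted p = 0.477 and 0.0555).

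Uhrf1, whose product recruits the Dnmt1 enzyme to hemimethylated DNA, was measured at 28.8, 27.2 and 24.7 FPKM in WT, 36.2, 26.3 and 28.3 in HET and 25.2, 26.7 and 22.6 in KO. HET 1 stood above the other 8 libraries, which overlapped between genotypes. KO minus HET was -0.27 (SE 0.11, 95% interval -0.52 to -0.01, limma adjusted p = 0.341). For KO minus WT it was -0.11 (limma adjusted p = 0.643). Uhrf1 and Dnmt1 had a Pearson r of 0.491 over the 9 libraries, given as a description.

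Dnmt3a, a de novo methyltransferase gene, was at 3.17, 2.96 and 2.15 FPKM in WT, 2.77, 2.76 and 3.01 in HET and 2.91, 2.43 and 2.85 in KO. Apart from WT 3 and KO 2, the libraries of all genotypes lay between 2.76 and 3.17. The KO minus WT difference was -0.01 (95% interval -0.26 to 0.25, limma adjusted p = 0.985), the estimate nearest to 0 among the members. Dnmt3b, the other de novo gene, was at 4.33, 3.79 and 2.77 FPKM in WT, 4.93, 4.39 and 3.73 in HET and 4.96, 4.26 and 5.35 in KO. The WT and KO libraries overlapped only in that WT 1 was above KO 2. KO minus WT was 0.35 (SE 0.14, 95% interval 0.04 to 0.65, limma adjusted p = 0.198), and without WT 3 it was 0.21 (limma adjusted p = 0.445).

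Tet2, the dioxygenase gene most often mutated in myeloid disease, was the member with the widest spread in vitro. Its level was 8.92, 6.42 and 4.12 FPKM in WT, 5.04, 7.45 and 8.45 in HET and 5.50, 5.26 and 5.59 in KO. The KO libraries were close together and lay inside the range of both other genotypes. The difference of KO from WT was -0.16 (SE 0.21, 95% interval -0.63 to 0.30, limma adjusted p = 0.723), with -0.41 without WT 3 and 0.06 without WT 1. Tet3 was at 3.90, 3.42 and 2.85 FPKM in WT, 4.26, 3.92 and 4.55 in HET and 4.28, 3.20 and 4.10 in KO. Every HET library was above every WT library, though HET 2 exceeded WT 1 by little. HET minus WT was 0.26 (95% interval -0.01 to 0.53, limma adjusted p = 0.223). Tet1 was at 0.769, 0.686 and 0.430 FPKM in WT, 0.464, 0.635 and 0.783 in HET and 0.546, 0.573 and 0.562 in KO. It missed the filter of 1 FPKM in 3 libraries, and an exact two-sided permutation test gave p = 0.7 for KO against WT, where the smallest p that 3 libraries against 3 allow is 0.1.

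Idh1, the cytosolic isocitrate dehydrogenase gene, was the only member whose groups did not overlap in KO against WT, where the groups of 22.9% of all genes did not overlap. Its level was 56.9, 52.0 and 54.8 FPKM in WT, 66.4, 59.8 and 68.1 in HET and 61.7, 70.5 and 62.0 in KO. All 6 libraries with a disrupted Fabp4 allele were above all 3 WT libraries, with means of 54.6 ± 2.45 in WT, 64.8 ± 4.37 in HET and 64.8 ± 4.99 in KO (SD, n = 3 each). Both differences from WT were 0.24 (SE 0.08), with limma adjusted p = 0.126 for KO and 0.104 for HET, so neither passed the threshold of 0.05. The KO and HET contrasts share the WT libraries. In HET against WT the groups of Idh1 and Tet3 did not overlap, as for 29.1% of all genes, and in KO against HET no member's groups were separate, against 22.4% of all genes. Idh2, the mitochondrial counterpart, was at 35.4, 35.8 and 36.6 FPKM in WT, 36.8, 34.6 and 31.2 in HET and 33.6, 39.0 and 32.6 in KO. Its genotypes overlapped, and KO minus WT was -0.04 (95% interval -0.23 to 0.15, limma adjusted p = 0.852).

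**Figure D2:**
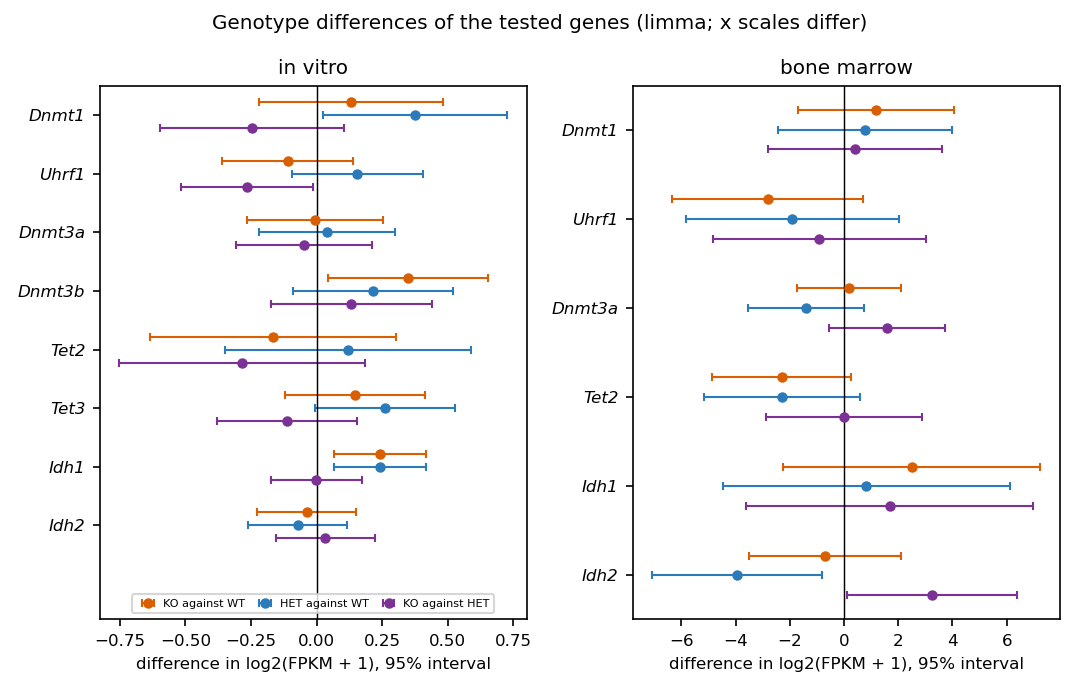
Differences between genotypes in log2(FPKM + 1) (x axis) for the tested genes (y axis), as limma estimates with 95% intervals, in vitro on the left and in bone marrow on the right. The x scales differ by about an order of magnitude, with standard errors of 0.08 to 0.21 in vitro and 0.87 to 2.17 for KO against WT in bone marrow.

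The in vitro libraries differed from each other in a way that tracked transcript length, and most members are long transcripts. Among the 2098 tested genes with a longest transcript of at least 5000 bases, the median deviation from the mean of the 9 libraries was -0.24 in WT 3 and -0.13 in KO 2 on the log2(FPKM + 1) scale, and -0.04 to 0.11 in the other 7. Among the 2432 genes under 2000 bases it was 0.13 in WT 3 and 0.08 in KO 2. WT 3 was the lowest library for 6 of the 9 members, namely Dnmt1, Dnmt3a, Dnmt3b, Tet1, Tet2 and Tet3, and KO 2 was the second lowest for Dnmt1, Dnmt3a and Tet3. The longest transcripts of these 6 genes run from 4320 bases (Dnmt3b) and 5870 bases (Dnmt1) to 14369 bases (Tet1). Their deviations in WT 3 were -0.54 for Dnmt1, -0.48 for Tet2, -0.47 for Dnmt3b, -0.32 for Tet3, -0.26 for Dnmt3a and -0.16 for Tet1. All but that of Tet1 were below the median of the gene's length class. Those of Idh1 and Idh2, which did not have their lowest value in WT 3, are 2302 and 1790 bases.

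The spread within genotypes was smaller for all 8 tested members when each library was centred within 20 bins of transcript length, an adjustment chosen after the data were seen. The within-genotype SD in log2(FPKM + 1) went from 0.152 to 0.0423 for Tet3, from 0.141 to 0.0448 for Dnmt3a and from 0.252 to 0.151 for Dnmt1. Among members with shorter transcripts it went from 0.104 to 0.0746 for Idh2, from 0.192 to 0.147 for Dnmt3b, from 0.163 to 0.154 for Uhrf1 and from 0.0915 to 0.0873 for Idh1. For Tet2 it went from 0.338 to 0.240, and the median over the 10380 genes with a length went from 0.129 to 0.109. With this adjustment limma called no member either. HET minus WT for Dnmt1 was then 0.28 (limma adjusted p = 0.133), that for Tet3 was 0.11 (limma adjusted p = 0.351) and that for Idh1 was 0.24 (limma adjusted p = 0.0743). Without both WT 3 and KO 2, HET minus WT for Dnmt1 was 0.19 (limma adjusted p = 0.295). The origin of the length-related difference between libraries was not tested.

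**Figure D3:**
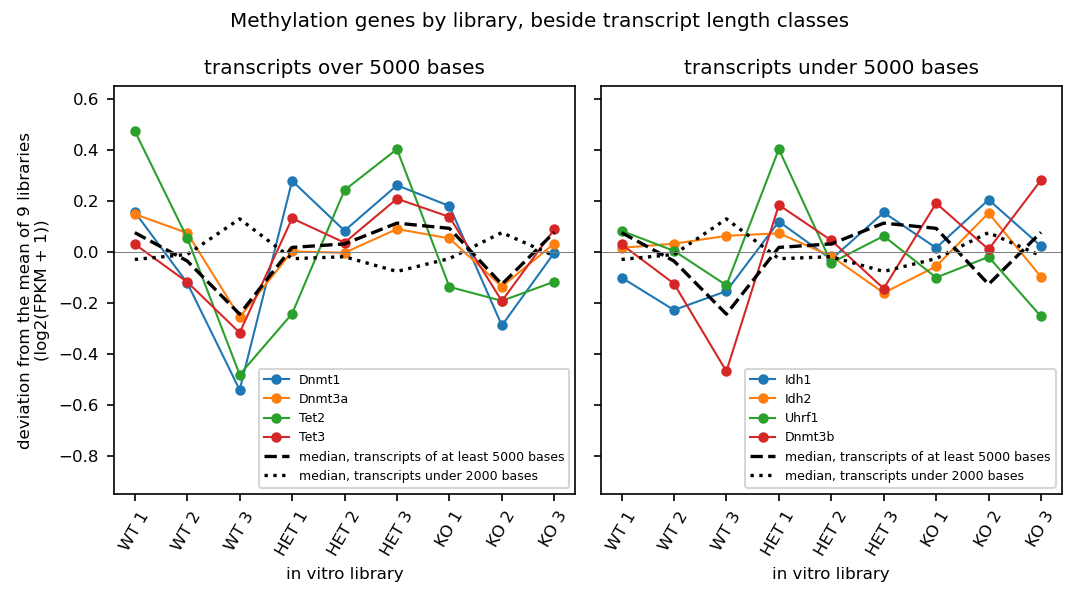
Deviation of each library from the mean of the 9 in vitro libraries in log2(FPKM + 1) (y axis) by library (x axis), for 4 genes with transcripts over 5000 bases on the left and 4 with shorter ones on the right. The dashed line is the median of all tested genes of at least 5000 bases, at -0.24 in WT 3, and the dotted line that of genes under 2000 bases, at 0.13 in WT 3.

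Several members varied together over the in vitro libraries, which share depth and the length-related difference, so the correlations are given as descriptions. Dnmt1 and Tet3 had a Pearson r of 0.958 over 9 libraries, and Dnmt1 and Dnmt3a 0.827. The lowest value among the pairs was -0.707, between Idh2 and Tet3. Among genes with a mean of at least 5 FPKM, the patterns most like that of Dnmt1 were those of Gak (r = 0.989), Gcc1 (0.982) and Sptan1 (0.978), and the patterns most like that of Uhrf1 were those of Nup85 (0.948), Slc19a1 (0.944) and Thop1 (0.931). For Dnmt3a they were those of Nedd4 (0.981), Tpr (0.979) and Atp6v1a (0.976), and for Dnmt3b those of Cebpz (0.981), Pum3 (0.962) and Ythdf2 (0.949). Tet2 was most like Rlf (0.990), Rreb1 (0.967) and Supt20 (0.963), and Tet3 most like Nfrkb (0.990), Zc3h4 (0.980) and Gapvd1 (0.979). Idh1 was most like Aamp (0.975), Inpp5j (0.945) and Ms4a6c (0.903), and Idh2 most like Nt5m (0.965), Rtn3 (0.934) and Qdpr (0.924).

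In the bone marrow set the members were measured far less evenly, and no genotype difference passed the test. Dnmt1 was the only member at or above 1 FPKM in all 8 libraries, at 9.17, 1.98 and 11.3 FPKM in WT, 21.05 and 5.90 in HET, and 7.03, 23.9 and 20.2 in KO. The genotypes overlapped, and KO minus WT was 1.17 (95% interval -1.71 to 4.04, limma adjusted p = 0.995). limma called 0 of the 6 members tested in KO against WT, as it called 0 of 7246 genes (0%), and at an unadjusted p under 0.05 there were 0 members and 370 genes (5.11%). In HET against WT it called 0 of 6, against 19 genes (0.262%), and in KO against HET 0 of 6, against 12 genes (0.166%). Each of these had 1 member at an unadjusted p under 0.05, Idh2, where 12.4% and 11.3% of all genes had one. The members' median difference was -0.26 in KO against WT, -1.66 in HET against WT and 0.99 in KO against HET, beside -0.18, -0.99 and 0.83 over all genes tested.

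Other members went from well above 10 FPKM in some libraries to nearly nothing in others of the same genotype. Uhrf1 was at 10.8, 25.9 and 21.7 FPKM in WT, 0.142 and 22.4 in HET, and 0.0172, 14.4 and 0.330 in KO. At the estimated depth of KO 1 the Uhrf1 value came to about 1 fragment, while Dnmt1 in the same library came to about 670. Idh1 was at 0.0942, 32.5 and 0 FPKM in WT, 0 and 33.1 in HET, and 0.0251, 74.7 and 84.7 in KO. KO minus WT was -2.81 for Uhrf1 (SE 1.61, limma adjusted p = 0.993) and 2.50 for Idh1 (SE 2.17, limma adjusted p = 0.995), so differences of this size were within the spread between libraries.

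Tet2 was at 18.4, 10.6 and 0.576 FPKM in WT, 1.04 and 0 in HET, and 0.188, 1.49 and 0 in KO. WT 1 and WT 2 were above all HET and KO libraries and WT 3 was not, and KO minus WT was -2.30 (limma adjusted p = 0.993). Dnmt3a was at 1.73, 2.60 and 0.930 FPKM in WT and at 5.12, 0.944 and 1.28 in KO, and it was listed at 0 in both HET libraries. Idh2 was likewise listed at 0 in both HET libraries, and was at 7.04, 39.9 and 9.96 FPKM in WT and at 9.85, 8.40 and 7.29 in KO. These were the 2 tested members whose HET libraries lay outside the range of WT and of KO, in comparisons where 30.1% and 27.9% of all genes did so. HET 1 and HET 3 are the shallowest and second shallowest libraries. HET minus WT for Idh2 was -3.94 (limma adjusted p = 0.282). In KO against WT no tested member's groups were separate, against 12.3% of all genes.

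Tet1 and Tet3 missed the filter in bone marrow. Tet1 was at 0.0025, 0 and 0 FPKM in WT, 0 in both HET libraries, and 0.0033, 0.482 and 0.278 in KO, levels below 0.5 FPKM throughout. Every KO library was above every WT library, but the values of KO 1 and WT 1 each came to under 1 fragment at the estimated depth. An exact two-sided permutation test of KO against WT gave p = 0.1, the smallest that 3 libraries against 3 allow. Tet3 was at 0.0038, 12.2 and 1.47 FPKM in WT, 0 in both HET libraries, and 0, 0 and 0.912 in KO, with an exact permutation p of 0.2 for KO against WT. In the order of mean bone marrow levels, from Idh1 at 28.1 and Dnmt1 at 12.6 down to Tet1 at 0.0958 FPKM, every pair of neighbours overlapped.

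**Figure D4:**
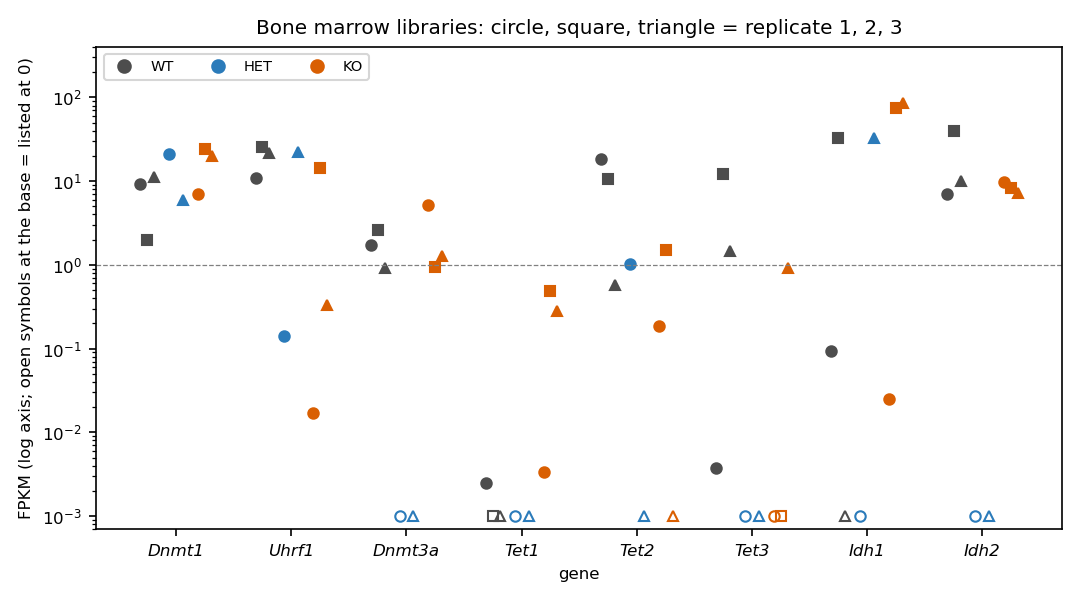
FPKM of the 8 genes in each bone marrow library (y axis, logarithmic, with open symbols at the base for genes listed at 0), colored by genotype; the dashed line marks 1 FPKM. Dnmt1 is the gene with all 8 libraries above that line, and Uhrf1 spans 0.0172 to 25.9.

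Marker transcripts of several blood cell types differed in summed level between the bone marrow libraries, in sums that were not tested. Summed over 13 neutrophil marker genes, the level was 2094 to 55733 FPKM in WT, 131153 to 135661 in HET and 135160 to 216231 in KO, so HET and KO lay above WT without overlap. Of the 11 that could be tested, limma called 0 in KO against WT and 0 in HET against WT, with 5 and 1 at an unadjusted p under 0.05, beside 5.11% and 12.4% of all genes. Dendritic cell markers summed to 980 to 1555 FPKM in WT, 3547 to 3833 in HET and 1864 to 5016 in KO, also without overlap with WT. limma called 0 of 7 in both comparisons, with 3 at an unadjusted p under 0.05 in each. The 7 genes did not move together. Their median difference was -0.45 in HET against WT (range -3.16 to 2.98) and 0.88 in KO against WT (range -2.72 to 3.03). Mast cell, basophil and eosinophil markers summed to 103 to 258 FPKM in WT, 0 in both HET libraries and 27.9 to 87.6 in KO. limma called 0 of 5, with 0 at an unadjusted p under 0.05 in either comparison. In KO against WT these 5 genes went both ways, from -3.25 to 1.75. The HET libraries are the shallowest, and the median over all genes in HET against WT was -0.99. Stem and progenitor markers summed to 94.6 to 151 FPKM in WT, 17.8 to 115 in HET and 38.6 to 124 in KO. Between 5399.8 and 11063 FPKM of myeloid progenitor transcripts were found in WT, within which range the HET and KO libraries fell. The part of these cell types in the values of Tet2, Uhrf1 or Idh1 was not tested. For the 6 members tested in both sets, the difference between the sets in KO minus WT was not past the threshold either. limma called 0 of 6, against 51 of 6915 genes (0.738%), with 0 members and 7.85% of genes at an unadjusted p under 0.05. That fit takes 1 spread per gene over both sets, so its p-values may be too small where bone marrow spread was larger. The largest of these differences was -2.70 for Uhrf1 (limma adjusted p = 0.737).

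Genes that work around the methylation enzymes were examined as lists, in vitro, where the values were even enough to compare. The shares to read their counts against are those of all genes, with 2.99%, 3.68% and 1.99% called and 19.4%, 23.4% and 13.2% at an unadjusted p under 0.05 in KO against WT, HET against WT and KO against HET. None of 10 methyl-CpG readers, the proteins that bind the mark, passed the limma test in any in vitro comparison, with 1, 1 and 0 at an unadjusted p under 0.05 in KO against WT, HET against WT and KO against HET. Their summed level was 178 to 190 FPKM in WT, 182 to 186 in HET and 182 to 187 in KO. Of 16 tested methyltransferase cofactors and recruiters, 1 rose in HET against WT and none passed in the other comparisons. This was Ehmt2, a histone methyltransferase gene, from 36.9 ± 3.07 FPKM in WT to 46.3 ± 1.38 in HET (0.32, limma adjusted p = 0.0426), a call that was lost in 12 of 19 refits.

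Among 16 tested TET partners and repair genes, which finish the removal of oxidised cytosine, 2 rose in KO against WT. Gadd45b, a stress-induced gene reported to promote active demethylation, was at 23.4, 22.1 and 23.4 FPKM in WT, 25.3, 29.0 and 27.3 in HET and 30.1, 35.4 and 32.6 in KO. The 3 genotypes did not overlap, with HET between the others, and KO minus WT was 0.49 (SE 0.08, limma adjusted p = 0.0108). Without KO 3 the limma adjusted p was 0.0626. Neil1, a DNA glycosylase gene of base excision repair, had a mean of 5.35 ± 0.622 FPKM in WT and 7.70 ± 0.579 in KO (0.46, limma adjusted p = 0.0331), and this call was lost in 12 of 19 refits. The list's median in that comparison was 0.14, against 0.04 over all genes. It had no calls in HET against WT or KO against HET, where 5 and 2 of its genes had an unadjusted p under 0.05.

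The S-adenosylmethionine and folate cycle supplies the methyl groups that the Dnmt enzymes transfer, and 2 of its genes fell in vitro. Mthfd1l, a mitochondrial enzyme gene of formate production, was at 41.0, 35.5 and 34.3 FPKM in WT, 33.2, 32.5 and 34.2 in HET and 23.4, 25.5 and 22.7 in KO. Every KO library was below every library of the other genotypes, and HET was below WT by a narrow margin. KO minus WT was -0.61 (SE 0.08, limma adjusted p = 0.00332), and the call held in all 19 refits. KO minus HET was -0.46 (limma adjusted p = 0.0125), which was lost without HET 2, HET 3, KO 1 or KO 3, with adjusted p of 0.0609 to 0.0846. Mthfd2, which encodes another enzyme of the mitochondrial branch, fell from 47.7 ± 3.83 FPKM in WT to 35.1 ± 2.64 in HET (-0.43, limma adjusted p = 0.0156), a call lost without WT 2, HET 1 or HET 3 and with values rescaled to TPM (-0.36, limma adjusted p = 0.0637). In KO it was at 37.6 ± 1.15 FPKM, and KO minus WT missed the threshold (-0.33, limma adjusted p = 0.0502). These were the only calls among the 22 tested genes of the list, which had 8, 4 and 6 genes at an unadjusted p under 0.05 in KO against WT, HET against WT and KO against HET. The list's median was -0.10 in KO against WT, with a range of -0.61 to 0.64. The highest value was that of Mat2a, which was not called (limma adjusted p = 0.151), so the list did not move in 1 direction. In the same KO libraries stem and progenitor markers summed to 276 to 280 FPKM, above the 231 to 263 in WT and the 214 to 224 in HET. Of 12 tested, 3 rose in KO against WT (Hlf, Pbx3 and Flt3) and 4 in KO against HET (these and Mecom). The part of such cells in the values of Mthfd1l, Gadd45b or Neil1 was not tested. Of 25 tested genes that supply alpha-ketoglutarate or remove the related acid, none passed in vitro, with 3, 4 and 1 at an unadjusted p under 0.05 in limma.

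**Figure D5:**
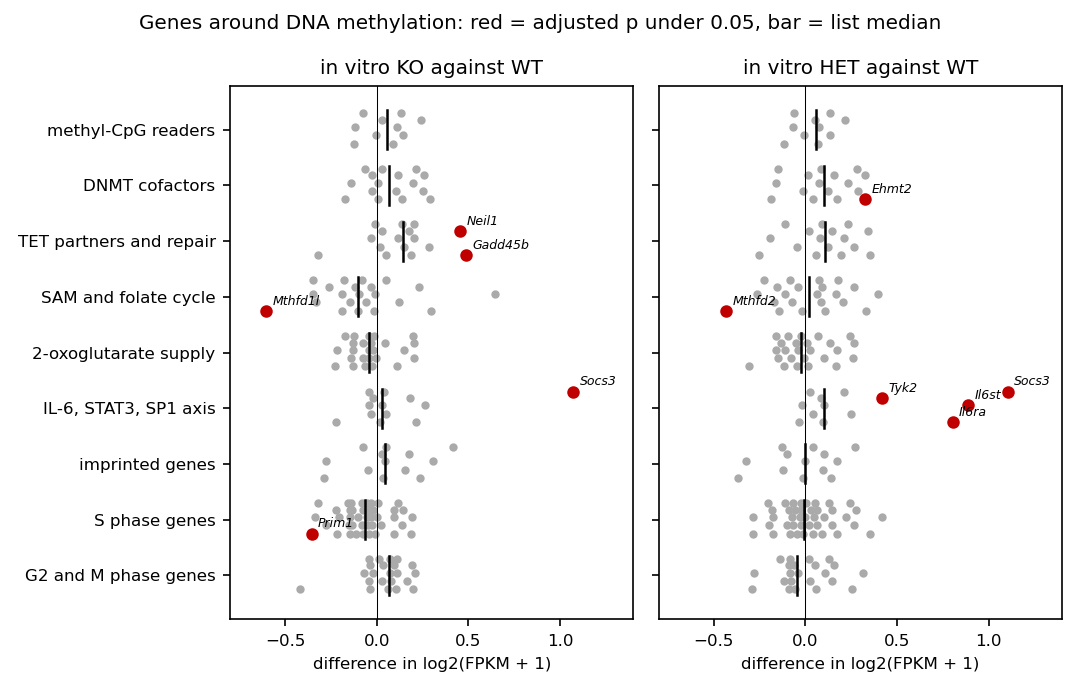
Differences in log2(FPKM + 1) (x axis) for every tested gene of 9 lists (y axis), in KO against WT and HET against WT in vitro. Red points passed limma at an adjusted p under 0.05, grey ones did not, and bars are list medians, all of which lie between -0.10 and 0.14.

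A list of 14 genes on an IL-6, STAT3 and SP1 axis was included because that axis has been proposed to link FABP4 to DNMT1. Of 13 tested genes, 4 rose in HET against WT, where 2.94% of all genes did, and 1 in KO against WT, where 1.36% did. Socs3, the feedback inhibitor of STAT3 signalling, was at 11.1, 16.6 and 19.8 FPKM in WT, 28.0, 35.3 and 40.7 in HET and 34.5, 32.1 and 34.0 in KO. All 6 HET and KO libraries were above the WT libraries, with differences of 1.10 for HET (limma adjusted p = 0.00654) and 1.07 for KO (limma adjusted p = 0.0105). The HET call held in all 19 refits, and the KO call was lost without KO 1 (0.0571) or KO 3 (0.0549). Il6st and Il6ra, which encode the chains of the IL-6 receptor, were low. Il6st went from 0.759 ± 0.404 FPKM in WT to 2.20 ± 0.229 in HET (0.89, limma adjusted p = 0.0246) and Il6ra from 0.785 ± 0.508 to 2.06 ± 0.478 (0.80, limma adjusted p = 0.0411). These calls were lost in 6 and 12 of 18 refits. With a smaller pseudocount the difference was 1.55 for Il6st (limma adjusted p = 0.0497). For Il6ra it was 1.43 (limma adjusted p = 0.0587), so that call was lost in this setting. Tyk2, a receptor-associated kinase gene, went from 15.3 ± 1.80 to 20.7 ± 0.464 FPKM (0.42, limma adjusted p = 0.0353), which was lost in 9 of 19 refits. Stat3 and Sp1 themselves differed by -0.03 and -0.04 in KO against WT (limma adjusted p = 0.897 and 0.902). In the same HET libraries 7 of 11 tested monocyte and macrophage markers and 5 of 12 tested neutrophil markers rose against WT. The summed monocyte markers were 510 to 714 FPKM in WT, 999.7 to 1200 in HET and 656 to 998 in KO. The part of these cells in the IL-6 receptor values was not tested.

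Cell division genes were set beside Dnmt1 and Uhrf1, whose transcripts belong to S phase. Of 42 S phase genes, 1 fell in KO against WT, the primase gene Prim1, from 26.5 ± 0.437 to 20.5 ± 1.68 FPKM (-0.36, limma adjusted p = 0.0491), a call lost in 11 of 19 refits. None passed in HET against WT, where the unadjusted p of 5 was under 0.05 in limma. The summed S phase level was 1141 to 1270 FPKM in WT, 1132 to 1324 in HET and 1103 to 1137 in KO. Of 22 genes of G2 and M phase, none passed limma in vitro, with 2, 1 and 2 at an unadjusted p under 0.05.

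Genes whose silencing depends on DNA methylation were examined as a readout. Of 30 listed germline genes 19 were in the in vitro table, and none of them reached 1 FPKM in any library, with a highest value of 0.769 for Dpep3. Their summed level was 1.57 to 1.75 FPKM in WT, 1.98 to 2.35 in HET and 1.42 to 1.94 in KO. Every HET library was above every WT library, at levels too low for any of the genes to enter the test. Of the 30 germline genes, 3 were found in bone marrow and 2 of these reached 1 FPKM, with Dpep3 at up to 37.5. Their sum there was 15.3, 37.5 and 0.0165 FPKM in the WT libraries, 0 in both HET libraries, and 0, 0.0153 and 0.0145 in KO. WT 1 and WT 2 were thus high and WT 3 was not, and none of the 3 genes passed the filter for the test. Of 36 listed imprinted genes, which are expressed from the chromosome of 1 parent under control of methylated regions, 13 were tested in vitro and none passed limma, with 3, 3 and 1 at an unadjusted p under 0.05 in KO against WT, HET against WT and KO against HET. In bone marrow no gene of the reader, cofactor, TET partner, folate cycle, alpha-ketoglutarate, IL-6 axis, imprinted, S phase or G2 and M phase lists passed limma in any comparison, with 0 to 7 genes of a list at an unadjusted p under 0.05.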

How the data were processed

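Bulk RNA-seq values of 9 in vitro and 8 bone marrow libraries were used. They are FPKM as the authors deposited them, per the file headers, with 1 file for each set. Per the labels' protocols, RNA extraction used TRIzol and library preparation a VAHTS V6 kit. The submitters' processing notes name mm10 as the build. Not given in the sources used here are the aligner, the counter, the gene annotation and whether strand was used, and reads of overlapping antisense genes cannot be told apart. FPKM carry no raw counts, and each value depends on what the most abundant transcripts take up. Since the files may have been scaled separately, genotypes were compared only within a set. A value of exactly 0 may be a failed estimate.

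Tests used limma 3.58.1 in R 4.3.3 (statmod 1.5.0, data.table at version 1.17.8), with trend and robust options, on values transformed as log2(FPKM + 1). Fold differences on this scale understate those of low genes. The filter kept genes with 1 FPKM or more in 3 or more libraries of the set, 10877 in vitro and 7246 in bone marrow. The 3 genotypes of a set shared a fit without a block, and Benjamini-Hochberg adjustment ran over all genes tested, with a threshold of 0.05. The difference between the sets came from a joint fit with 1 spread per gene over both sets. Its p-values may be too small where bone marrow spread was larger. Members below the filter were compared by exact permutation. The script was tested on simulated data. Depth was estimated from the steps of low values of single-exon genes, is approximate and entered no test.

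The members and the gene lists were chosen with earlier results of these data known. All members are named whatever their values. Of the lists, called genes are named, at most 6 per list and comparison. For the cell cycle and marker lists counts and sums are given, with the called gene of the S phase list. Alternatives were another pseudocount, other filters, quantile normalization, median-ratio size factors, TPM, only the compared groups, a replicate block and leaving out each library. The adjustment for transcript length and the omission of both WT 3 and KO 2 were added after the data were seen. Promoter sequences and positions are those of RefSeq on GRCm38.p6, and transcript lengths those of GENCODE.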

Additional observations from a re-analysis of the deposited data

Results flagged for a closer look

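Ltf, the lactoferrin gene of secondary neutrophil granules, was the single gene among the lists for which KO minus WT differed between the sets past the threshold in a joint limma fit. The bone marrow difference exceeded the in vitro one by 6.89 on the log2(FPKM + 1) scale (limma adjusted p = 0.000734). That fit takes 1 spread per gene over both sets, so its p-value may be too small where bone marrow spread was larger. In bone marrow alone limma called 0 of 7246 genes in KO against WT, so Ltf did not pass there. It met the bone marrow filter through its KO libraries only. In bone marrow the KO libraries had Ltf levels of 107, 146 and 191 FPKM. The WT libraries had 0.0335, 0.0706 and 0, and HET 1 and HET 3 were listed at 0. All 3 KO libraries were thus far above all others. In vitro it was at 1.07, 4.02 and 4.66 FPKM in WT, 12.1, 16.9 and 16.8 in HET, and 4.36, 2.17 and 4.70 in KO, so that there the HET libraries were the high ones. Ltf is a neutrophil marker and no methylation gene. Its bone marrow levels did not follow the summed neutrophil markers, which were high in HET as well as in KO, and the reason was not tested.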

How the results depend on the processing

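No member passed the threshold under any alternative. The count of members called was 0 in all 19 refits of each in vitro comparison, all 16 of each bone marrow comparison and all 25 of the difference between the sets. Over 872 refits of single members, the lowest limma adjusted p was 0.0528 (Tet2, difference between the sets, without bone marrow WT 3), and in vitro it was 0.0540 (Idh1, HET against WT, rescaled to TPM) and 0.0555 (Dnmt1, HET against WT, without WT 1). The sign of an uncalled difference changed in 49 of the 872. Of the 11 calls of named pathway genes, 145 of 207 refits kept the call, 62 lost it and 0 reversed it.

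The number of calls over all genes moved much more. It ran from 66 to 579 in KO against WT, 84 to 628 in HET against WT and 73 to 344 in KO against HET in vitro, from 0 to 4, 0 to 323 and 0 to 330 in bone marrow, and from 19 to 135 for the difference between the sets. With the replicate number as a block, limma called 0 members in every comparison, and 172, 234 and 160 genes in vitro. The numbers were not taken to pair samples. Same-numbered in vitro libraries had correlations of -0.30 to 0.18 in their deviations from the group means, over 0.1 in 3 of 9 pairs. Differently numbered ones had -0.33 to 0.37, over 0.1 in 8 of 18 pairs. The best correlation was with the own number for 2 of 9 libraries in vitro and 3 of 8 in bone marrow. With so few libraries a group, these values cannot decide whether the numbers pair samples. In bone marrow, quantile normalization moved the median over all genes by 0.54 in HET against WT and by -0.41 in KO against HET, so levels there depend on scaling. Depth was lowest in the bone marrow HET libraries, where members listed at 0 may lie below detection.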
